A study of Mus musculus with 4 samples.

Results

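Messenger RNA of Fgf8 and 8 other fibroblast growth factor (FGF) ligands, Fgf1, Fgf2, Fgf7, Fgf9, Fgf10, Fgf11, Fgf18 and Fgf23, was compared between lungs of Fgf8 hypomorph mice and wild type mice at E18.5, the last days before birth. All non-control spots that carry one of these gene names were taken, with every probe of each gene kept, which gave 9 of 27745 gene names, 14 of 41174 probes and 41 of 43379 spots on each array. The control lungs came from Fgf8+/+ littermates and the hypomorph lungs from Fgf8H/- mice, which carry 1 hypomorphic allele, that is one of reduced function, over an allele written with a minus sign, the usual sign for a null allele. Both genotypes had the strain background given as c57nl7/sv129. The sample titles name the mutants by the letters AP/N, which the sources used here do not explain. The lobes were freed of large airways and vessels, and RNA of 3 lungs of a genotype made 1 pool. Each of 4 arrays held 1 wild type pool labelled with the dye Cy3 and 1 hypomorph pool labelled with Cy5, so n = 4 pools per genotype.

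FGF ligands are small proteins that bind heparan sulphate and FGF receptors and act largely through the ERK kinase cascade. In the developing lung, FGF10 from the mesenchyme drives branching of the epithelium, FGF7 supports growth of the same epithelium, and FGF9 from epithelium and mesothelium acts on the mesenchyme. FGF8 is best known for patterning the early embryo, the pharyngeal arches and the heart.

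Ratios are log2 of hypomorph over wild type, after background correction and loess normalization, with the mean ± SD over 4 arrays (n = 4) where no other n is given. A probe was called changed at a Benjamini-Hochberg adjusted p under 0.05 in limma's moderated test over all 29950 probes bright enough to be tested. The 4 arrays shared 1 slide and 1 scan. No array had the dyes swapped, and a probe's dye effect and a genotype effect therefore cannot be told apart. The spots well above background numbered 32491 to 33744 per array in the wild type channel and 32731 to 34519 in the hypomorph channel. Spike-in controls of known ratio gave slopes of observed on expected log ratio of 0.690 to 0.718, below the slope of an uncompressed ratio. Of 46 markers of lung and neighbouring tissues, 45 were on the array and 41 of them were well above background in both genotypes on every array. These included all 7 lung epithelial, all 4 type 1 cell and all 6 lung mesenchyme markers, whereas the cartilage marker Matn1 and the liver marker Ttr were well above background on no array. Of 38 markers tested by their brightest probe, 4 rose and 9 fell. The falls were 3 of mesothelium, 2 of endothelium and 1 each of type 1 cells, mesenchyme, smooth muscle and blood. With the brightest probe of every gene name tested, 2870 of 20038 were called higher and 2716 lower. In RNA of whole lobes, fewer cells of a type and less RNA per cell cannot be told apart.

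Every one of the 9 ligands was measured well above background by at least 1 probe, though Fgf23 on only 1 array in the hypomorph. Of the 14 probes, 11 were tested. One probe rose, that of Fgf9, and 4 fell, those of Fgf7 and Fgf23 and 1 probe each of Fgf1 and Fgf11. The Fgf23 probe entered the test only through the wild type, in which it is higher, and with both genotypes required to be well above background 3 probes fell. Over all tested probes, 12.7% were called higher and 12.2% lower, and 24.9% were called in either direction. The median ratio of the 11 ligand probes was -0.18, beside -0.00 over all tested probes. Under median centring in place of loess, the median of the ligand probes was -0.0013, that of all probes moved to 0.10, and 74.3% of all calls were then higher, beside 50.9% with loess. A ligand's change is therefore relative to the other probes of the array. For the 4 called probes measured in both genotypes, the changes ran from 1.13-fold to 1.45-fold.

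**Figure D1:**
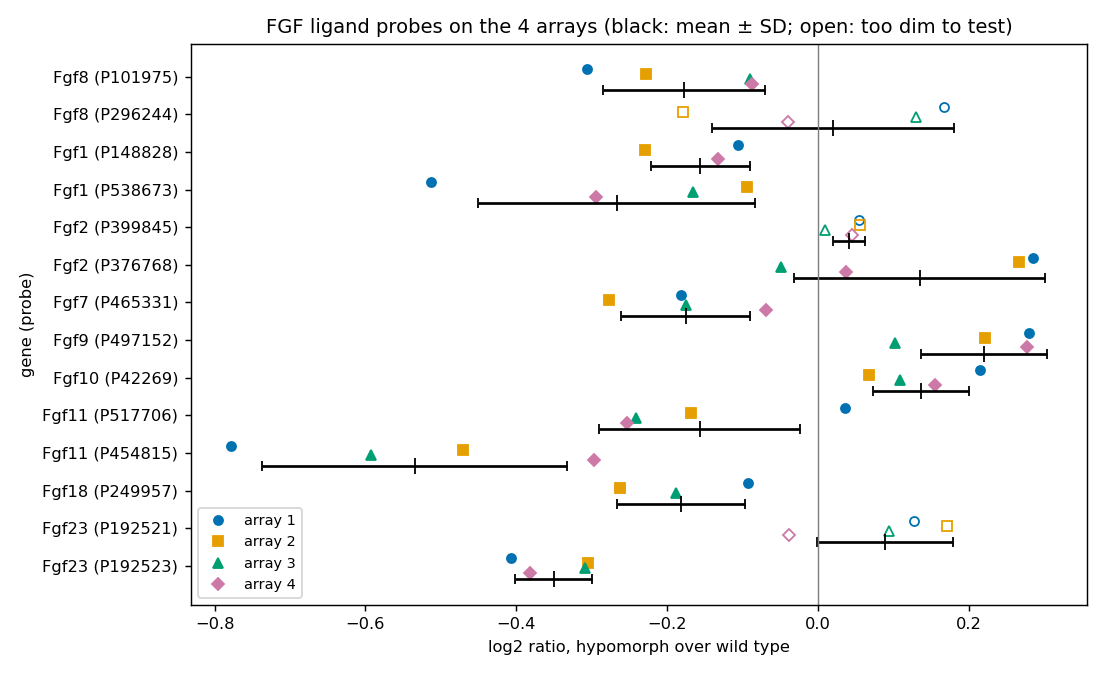
Normalized log2 ratio of hypomorph over wild type (x axis) for the 14 FGF ligand probes (y axis), with 1 symbol per array; black bars are the mean ± SD, and open symbols mark probes too dim to be tested. The 4 arrays of Fgf9 lie above 0 and those of Fgf7, Fgf23 (A_51_P192523), Fgf11 (A_52_P454815) and Fgf1 (A_52_P538673) below 0. With median centring the mean of Fgf7 was 0.00, that of Fgf18 was 0.16 and that of Fgf1 (A_51_P148828) was 0.05.

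The start regions of called ligands were searched for letters that ETS factors, SP1 and the TATA-binding protein are known to bind. Fgf23 is among them although its probe was tested only through the wild type. Starts from RefSeq (GRCm38.p6) were used for 4 of the 5 called ligands, and Fgf1 was left out of the search. The 250 bases before the start, 5′ to 3′ on the gene's strand, are printed for the ligand that rose and for both ligands with the lowest adjusted p, and capitals mark GGAA on either strand, the core letters bound by ETS factors such as those downstream of FGF and ERK.
Fgf9 (chr14:58072436-58072685, plus strand): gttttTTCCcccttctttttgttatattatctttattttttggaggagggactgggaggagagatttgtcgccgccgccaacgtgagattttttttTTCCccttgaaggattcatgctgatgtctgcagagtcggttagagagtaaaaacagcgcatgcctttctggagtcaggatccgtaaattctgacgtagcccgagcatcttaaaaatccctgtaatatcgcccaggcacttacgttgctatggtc
Fgf11 (chr11:69802281-69802530, minus strand): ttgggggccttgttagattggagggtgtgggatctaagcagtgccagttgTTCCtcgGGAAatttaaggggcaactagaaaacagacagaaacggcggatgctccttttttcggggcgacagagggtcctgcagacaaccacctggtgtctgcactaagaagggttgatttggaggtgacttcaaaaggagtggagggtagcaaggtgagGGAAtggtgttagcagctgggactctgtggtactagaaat
Fgf23 (chr6:127072652-127072901, plus strand): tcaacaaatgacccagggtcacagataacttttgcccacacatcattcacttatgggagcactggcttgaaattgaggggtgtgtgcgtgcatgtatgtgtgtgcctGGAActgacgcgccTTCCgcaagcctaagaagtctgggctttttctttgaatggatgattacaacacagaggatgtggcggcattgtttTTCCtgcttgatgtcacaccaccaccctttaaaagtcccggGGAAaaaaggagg
GGAA was present 2 times for Fgf9, 3 times for Fgf11 and 4 times for Fgf23, and 93.4% of 32851 promoters of this length held it at least once. The longer ETS letters CCGGAA, which contain GGAA, were in none of these 3 windows and in 12% of all promoters. TATAAA was likewise in none of the 3 and in 12.4% of all, and GGGCGG, the core letters of an SP1 motif, in none of the 3 and in 32.7% of all. The GC content was 44.8% for Fgf9, 51.2% for Fgf11 and 48.4% for Fgf23, beside a median of 52.4% over all promoters. The window of Fgf7, which is not printed, held GGAA 4 times and had a GC content of 43.6%. These are matches of letters on both strands, not measured binding.

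Fgf8, the gene altered in these mice, had a probe well above background (A_51_P101975, chromosome 19, 45790185 to 45790244 in build mm8, minus strand), printed as 10 spots on each array. The sources used here do not give the exon it lies in or its place relative to the altered parts of the alleles, and its signal therefore does not check the genotype. Its raw wild type signal was 234.6, 313, 245 and 209 scanner units on arrays 1 to 4, over a local background of 34.5 to 37.2. Its raw hypomorph signal in the other dye was 303, 375, 319 and 302, over a background of 50.9 to 53.1. Both genotypes therefore gave a signal several times the background on every array.

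After normalization, the log2 level of Fgf8 was 8.26, 8.50, 8.23 and 8.21 in the wild type pools and 7.96, 8.27, 8.14 and 8.13 in the hypomorph pools. The ranges overlapped, because the hypomorph pool of array 2 lay above the wild type pools of 3 arrays. Within each array the hypomorph was lower, with log2 ratios of -0.31, -0.23, -0.09 and -0.09. The mean was -0.18 ± 0.11, a 1.13-fold lower level with a 95% confidence interval from 1.03-fold to 1.24-fold lower, and it missed the threshold over all probes (limma, adjusted p = 0.0571). Over 20 other settings the ratio stayed below 0, between -0.25 and -0.14, with an adjusted p between 0.0389 and 0.193, and 5 of these settings passed the threshold, of which the processed signals and the series table hold the same values.

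Of 40 repeat spots of Fgf8, 39 were used, and 37 of them lay below 0. The SD among single spots of an array was 0.063 to 0.080, and the SD among the 4 array means, each of 9 or 10 spots, was 0.108. Arrays 1 and 2 gave the lower ratios, and arrays 3 and 4 nearly the same ratio. Repeat spots of an array share 1 pair of pools and are not replicates of the genotype. In the scanner software's own values per spot, 1 of the 40 Fgf8 spots had a p-value under 0.01.

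**Figure D2:**
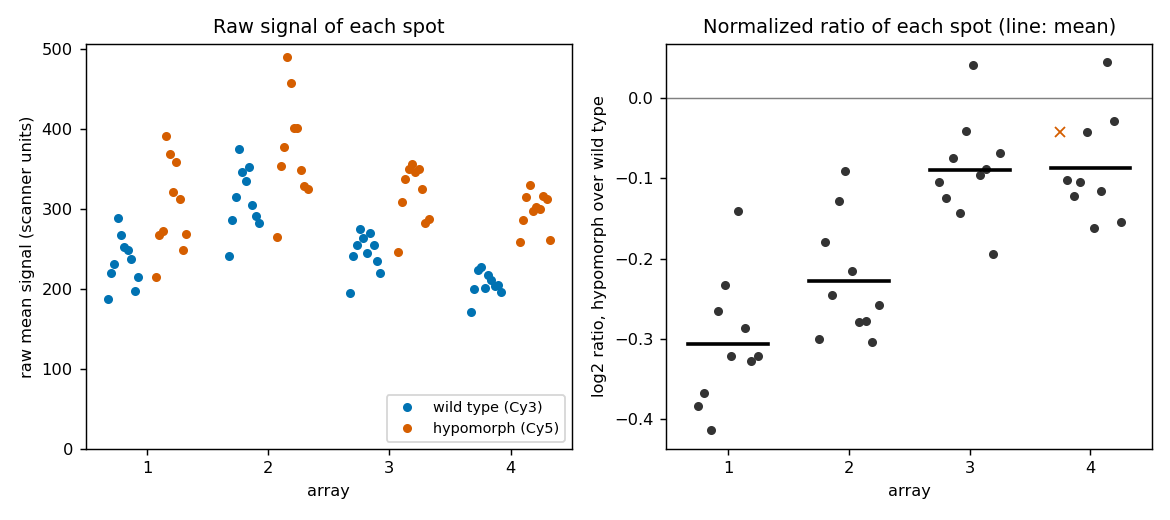
Each spot of the brighter Fgf8 probe on arrays 1 to 4 (x axis), as raw mean signal in scanner units for wild type and hypomorph (left) and as normalized log2 ratio of hypomorph over wild type (right), where lines are array means and the cross is the spot left out. The raw hypomorph signals are higher on each array before the channels are balanced, and 37 of the 39 ratios used lie below 0.

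The second Fgf8 probe (A_52_P296244, chromosome 19, 45794922 to 45794981) did not rise well above background on any array, in wild type or hypomorph. Its wild type signal was 45.4 to 49.9 over a background of 33 to 37, and its hypomorph signal 60.4 to 74.8 over 47 to 53. Its ratios were 0.17, -0.18, 0.13 and -0.04, on both sides of 0, so Fgf8 rests on the brighter probe alone.

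Among probes of named genes other than Fgf8, that of Huwe1, a ubiquitin ligase, had the 4 array ratios most like those of Fgf8. The root mean square difference was 0.0051 in log2. Zfp207, a zinc finger protein, followed at 0.0063 and Vps54, a subunit of a vesicle tethering complex, at 0.0153, out of 19534 probes compared. Within 0.05 of Fgf8 lay 173 of 27138 probes, so a pattern like this is shared by many probes over only 4 arrays.

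Fgf10 and Fgf7, mesenchymal ligands that both act on the epithelial form of Fgfr2, had ratios of opposite sign. Fgf10 (A_52_P42269, chromosome 13, 119910431 to 119910490, 10 spots) had log2 levels of 11.61, 11.44, 11.70 and 11.63 in the wild type and 11.83, 11.51, 11.81 and 11.79 in the hypomorph. The hypomorph pools lay above all wild type pools except on array 2, where the hypomorph level fell within the wild type range. Its ratios were 0.21, 0.07, 0.11 and 0.16, with a mean of 0.14 ± 0.06, which missed the threshold (limma, adjusted p = 0.0687). All 40 spots of Fgf10 lay above 0, with an SD among single spots of 0.022 to 0.065 within arrays. The 95% interval ran from 1.02-fold to 1.19-fold higher, and with median centring Fgf10 was 0.36 and passed (adjusted p = 0.00257).

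Fgf7 (A_51_P465331, chromosome 2, 125780852 to 125780911), keratinocyte growth factor, had log2 levels of 10.67, 10.58, 10.41 and 10.46 in the wild type and 10.49, 10.31, 10.23 and 10.39 in the hypomorph. The genotypes overlapped across arrays, but within each array the hypomorph was lower. The ratios were -0.18, -0.28, -0.17 and -0.07. Fgf7 fell by 0.18 on the log2 scale, with an SD of 0.09, or 1.13-fold (limma, adjusted p = 0.0457), but the call was lost under 10 of 20 other settings, and with median centring the ratio was 0.00 (adjusted p = 0.974). Leaving out any single array also cost Fgf7 its call, with adjusted p of 0.0569 to 0.173. The ratio of Fgf10 exceeded that of Fgf7 on 4 of 4 arrays, by 0.31 ± 0.07. This pair was chosen with its values in view. The exact two-sided sign-flip test gave p = 0.125, the smallest that 4 arrays allow, and 0.188 adjusted over the 3 pairs compared. Of 5 markers of lung mesenchyme tested, the tissue that makes both ligands, 1 was called, Pdgfra, which fell with loess (-0.29 ± 0.09, adjusted p = 0.0125) and was 0.08 with median centring. Pdgfra missed the threshold without array 2 or 3 (adjusted p of 0.0717 and 0.0623). The summed level of the 5 mesenchymal markers with values on all arrays was 165627 to 215034 in the wild type and 180791 to 212919 in the hypomorph, with overlap, and the part of this tissue in the ratios was not tested.

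Fgf9 and Fgf18, both known to signal to lung mesenchyme, also had ratios of opposite sign. Fgf9 (A_51_P497152, chromosome 14, 57063697 to 57063756) had log2 levels of 8.95, 9.07, 9.08 and 8.93 in the wild type and 9.23, 9.29, 9.18 and 9.21 in the hypomorph. Every hypomorph pool lay above every wild type pool. The ratios were 0.28, 0.22, 0.10 and 0.28, and Fgf9 rose by 0.22 ± 0.08, or 1.16-fold with a 95% interval of 1.07 to 1.26 (limma, adjusted p = 0.0241). The ratio stayed above 0 in 20 of 20 other settings. The call was lost without array 2, 3 or 4, with adjusted p of 0.105, 0.0526 and 0.0762.

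The mesothelium is a source of FGF9, and its 4 markers were all well above background. Of these, 3 fell, with log2 ratios of -0.69 for Lrrn4, -0.65 for Msln and -0.45 for Wt1 with loess, and Upk3b was not called. Msln was 0.12 with median centring and missed the threshold without array 2 (adjusted p = 0.0843). The summed normalized level of the 3 mesothelial markers with values on all arrays was 7154 to 8617 in the wild type and 6286 to 8911 in the hypomorph, with overlap. Msln, with values on 3 arrays, is not in this sum. Here, as in the other marker sums, brighter probes weigh more. The epithelium is another source of FGF9, and of 5 lung epithelial markers tested 2 were called, both higher, with ratios of the list from -0.16 to 0.23. The summed level of the 4 epithelial markers with values on all arrays was 84883 to 89281 in the wild type and 91000 to 100873 in the hypomorph, without overlap. Type 1 cells, also epithelial, were listed apart, and of their 4 markers tested 1 was called, Aqp5, which was lower (-0.66, limma, adjusted p = 0.00134). The summed level of the 3 with values on all arrays was 97036 to 108036 in the wild type and 84518 to 92999 in the hypomorph, without overlap and in the other direction. The part of either tissue in the Fgf9 ratio was not tested.

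Fgf18 (A_51_P249957, chromosome 11, 33017441 to 33017500) belongs to the same subfamily as Fgf8. Its raw wild type signal of 8712 to 11279 lay far above the local background of 36 to 37. Its normalized log2 levels were 13.57, 13.76 and 13.75 in the wild type and 13.48, 13.50 and 13.56 in the hypomorph on arrays 1 to 3, and on array 4 its spot was left out because the scanner software marked its local background. On these 3 arrays all hypomorph levels lay below all wild type levels. The ratios were -0.09, -0.26 and -0.19, with a mean of -0.18 ± 0.08 (n = 3), which missed the threshold (limma, adjusted p = 0.0739), and with median centring the mean was 0.16. With the background marks ignored, so that array 4 entered, the ratio was -0.17 and the adjusted p 0.0429, and without array 1, over the 2 arrays left, they were -0.23 and 0.0451. Fgf18 is also expressed around cartilage, of whose 4 markers 3 were well above background, of which 1 was called, Col9a1, which was higher (0.35) and missed the threshold without array 2 or 3 (adjusted p of 0.121 and 0.0564). The summed level of the 3 was 2207 to 3342 in the wild type and 2670 to 3633 in the hypomorph, and the part of cartilage in the Fgf18 ratio was not tested.

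Fgf1 and Fgf2, which lack a classical signal peptide and bind several receptors, gave no common direction. Fgf1 (A_52_P538673, chromosome 18, 38984594 to 38984653) had log2 levels of 8.96, 9.0, 8.50 and 8.71 in the wild type and 8.44, 8.90, 8.34 and 8.41 in the hypomorph, with overlap between the genotypes. Its ratios were -0.51, -0.09, -0.17 and -0.29, so array 1 was the lowest, and the mean of -0.27 ± 0.18, a fall of 1.20-fold, passed the threshold (limma, adjusted p = 0.0459). It did not pass without array 2, 3 or 4, with adjusted p of 0.0855, 0.0965 and 0.118, or with the scanner's processed signals (0.0603) or plain background subtraction (0.0555). The other Fgf1 probe (A_51_P148828, chromosome 18, 38966508 to 38966567) had ratios of -0.11, -0.23 and -0.13, its array 3 spot being left out for a background mark. Its mean was -0.16 ± 0.07 (n = 3, adjusted p = 0.0909), and it was 0.05 with median centring and -0.19 with the background marks ignored (adjusted p = 0.035). The 2 Fgf1 probes differed by -0.14 ± 0.27 (n = 3), in a pair chosen with values in view (exact sign-flip test, p = 0.5, smallest possible 0.25).

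Fgf2 was near background. Its tested probe (A_52_P376768, chromosome 3, 37596166 to 37596225) had log2 levels of 6.87, 6.65, 7.06 and 6.80 in the wild type and 7.16, 6.91, 7.01 and 6.84 in the hypomorph. Its ratios were 0.29, 0.27, -0.05 and 0.04, with a mean of 0.13 ± 0.17 (limma, adjusted p = 0.191) and a 95% interval of -0.03 to 0.30. Under median centring the mean was -0.00. The second Fgf2 probe (A_51_P399845, chromosome 3, 37540561 to 37587780, a span of 47220 bases beside 60 for the other) was printed as 10 spots and was well above background on 1 array only. Its ratios were 0.05, 0.06, 0.01 and 0.04, and of its 35 spots used 22 lay above 0 and 13 below.

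Fgf11, a member of the intracellular FGF homologous factors that do not act through FGF receptors, had the largest mean log2 ratio, in size, of the ligands measured in both genotypes after loess, whereas with median centring Fgf10 had (0.36 beside -0.35). Its probe A_52_P454815 (chromosome 11, 69612453 to 69612512, minus strand) had log2 levels of 10.84, 10.83, 10.81 and 10.66 in the wild type and 10.07, 10.36, 10.22 and 10.36 in the hypomorph. Every hypomorph pool lay below every wild type pool. The ratios were -0.78, -0.47, -0.59 and -0.30, and the level fell by 0.53 on the log2 scale, with an SD of 0.20, or 1.45-fold with a 95% interval of 1.27 to 1.66 (limma, adjusted p = 0.00821). The call held in 19 of 20 other settings and was lost without array 2 (adjusted p = 0.0514).

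The second Fgf11 probe (A_51_P517706, chromosome 11, 69615634 to 69615903) did not show a change of that size. Its levels were 7.51, 7.48, 7.87 and 8.10 in the wild type and 7.54, 7.31, 7.63 and 7.84 in the hypomorph, and the ranges overlapped. Its ratios were 0.04, -0.17, -0.24 and -0.25, with a mean of -0.16 ± 0.13 (limma, adjusted p = 0.102), and without array 1 it was -0.22 and passed (adjusted p = 0.018). The first probe was lower than the second on 4 of 4 arrays, by -0.38 ± 0.32, with single arrays between -0.81 and -0.04. The pair was chosen with values in view, and the exact two-sided sign-flip test gave p = 0.125, the smallest possible, and 0.188 adjusted over 3 pairs. The sources used here assign the second probe to a RefSeq transcript of Fgf11, and the first to a sequence that was matched to no RefSeq gene. They do not say which other Fgf11 transcripts either probe detects.

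Fgf23, a hormone made mainly by bone that controls phosphate through Klotho and FGF receptors, was close to background in these lungs. Its probe A_51_P192523 (chromosome 6, 127038685 to 127038744) was well above background on 4 arrays in the wild type and on 1 in the hypomorph, so it was tested because of the genotype in which it is higher. Its raw signal was 69.9 to 86.4 over a background of 30.5 to 38 in the wild type and 79.6 to 93.8 over 52 to 57.5 in the hypomorph. The log2 levels were 6.75, 6.64, 6.60 and 6.98 in the wild type and 6.35, 6.34, 6.29 and 6.60 in the hypomorph. Every hypomorph pool lay below every wild type pool, although the hypomorph level of array 4 lay just below the lowest wild type level, that of array 3. The ratios were -0.41, -0.31, -0.31 and -0.38, with a mean of -0.35 ± 0.05 (limma, adjusted p = 0.00493). Since the hypomorph signal was not well above background on 3 arrays, no fold is given, and the p does not support a size of change.

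The size of the Fgf23 change depends on the background correction. In the scanner software's own values per spot, which use subtracted signals, the mean log2 ratio of this probe was -0.90, and 1 of 4 spots had a p-value under 0.01. The second Fgf23 probe (A_51_P192521, chromosome 6, 127043797 to 127043856) did not rise well above background on any array, in wild type or hypomorph, and its ratios were 0.13, 0.17, 0.09 and -0.04. In the scanner software's own values per spot its log ratio is listed at 0 on 4 arrays. One probe of Fgf23 was thus lower and the other gave no usable ratio.

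**Figure D3:**
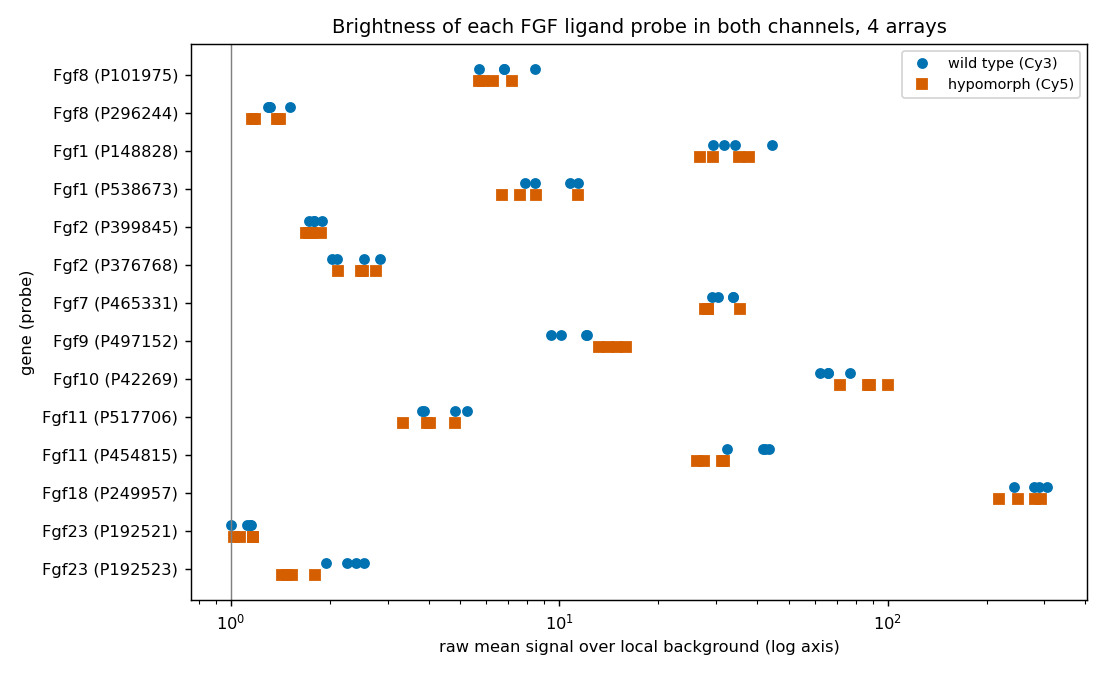
Raw mean signal divided by local background (x axis, log scale) for the 14 FGF ligand probes (y axis), 1 point per array for wild type and hypomorph; brightness of different probes is not a measure of relative expression. The probes A_52_P296244 of Fgf8 and A_51_P192521 of Fgf23 lie next to the line at 1 in both genotypes, and A_51_P192523 of Fgf23 lies farther from it in the wild type.

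The arrays did not contribute equally. Of the 9 tested ligand probes with 4 values, 7 had their ratio farthest from 0 on array 1, 1 on array 2 and 1 on array 4. Among all 27139 tested probes with 4 values, 46.6% had it on array 1, so the ligands shared this with the other probes of the array. Without array 2, the share of all tested probes called fell from 24.9% to 5.21%, and 1 ligand probe, that of Fgf23, was still called, which rests on a dim hypomorph signal. Without array 3 or 4, 2 ligand probes were called, those of Fgf23 and Fgf11 (A_52_P454815).

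Other members of the pathway were taken from fixed lists of genes, in which a gene counts as changed if any of its probes passed. Over all gene names tested, 16.3% had a probe called higher and 15% a probe called lower. Of 13 further FGF ligands, 12 were on the array and 4 were tested. Of these, 1 was called, the intracellular Fgf12, which fell by 1 probe (-0.34 ± 0.21, adjusted p = 0.0338). The other tested Fgf12 probe was not called (-0.12 ± 0.27, adjusted p = 0.405). Of 7 receptors and klothos, 5 were tested, of which 2 rose and 2 fell. Fgfrl1, a receptor without a kinase domain, was 0.29 ± 0.08. Among the kinase receptors, Fgfr4 was -0.50 ± 0.16 and Fgfr3 -0.31 ± 0.14 by their probes of smallest p. Their other tested probes had -0.22 ± 0.04 and -0.14 ± 0.08 for Fgfr4 and -0.24 ± 0.13 for Fgfr3. Of these, the Fgfr4 probe at -0.14 missed the threshold (adjusted p = 0.0719). The other receptor that rose was the kinase receptor Fgfr2, named after its values were seen, through 1 of 3 tested probes (0.20 ± 0.04, n = 3, adjusted p = 0.0472), while its other probes had 0.17 ± 0.10 and 0.05 ± 0.12. The Fgfr2 call was lost without any single array and with the processed signals (adjusted p of 0.0717). Median log2 ratios over the probes of these lists were 0.03 for the ligands and 0.02 for the receptors.

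Of 21 genes for heparan sulphate and FGF binding, 20 were tested, of which 4 rose and 3 fell, with a median of 0.01. The cell surface proteoglycan Sdc4 rose (0.27 ± 0.08). Sdc2 (-0.21 ± 0.04) and Fgfbp1, a secreted protein that releases FGFs from the matrix (-0.26 ± 0.10), fell. The other tested Sdc2 probe was 0.02 ± 0.10 and was not called (adjusted p = 0.846). The last list held 24 genes, namely feedback and target genes of FGF and ERK together with signalling adaptors such as Frs3 and Grb2. Of these 24, 22 were tested, of which 5 rose and 5 fell, again with a median of 0.01. The 3 with the smallest p fell. They were Flrt3, a membrane protein that interacts with FGF receptors (-0.37 ± 0.09), and the ERK phosphatases Dusp7 (-0.33 ± 0.07) and Dusp6 (-0.42 ± 0.03, n = 3). The other Flrt3 probe was also called lower (-0.30 ± 0.08). Spred3 (-0.29 ± 0.13) and Dusp4 (-0.26 ± 0.16), named after their values were seen, fell as well, while the other Dusp4 probe was not called (-0.13 ± 0.11). The 5 that rose, named after their values were seen, were Frs3 (0.30 ± 0.08), Spry2 (0.32 ± 0.12, n = 3), Etv5 (0.28 ± 0.17), Etv1 (0.21 ± 0.05) and Grb2 (0.15 ± 0.04). The other Spry2 probe was also called (0.23 ± 0.13), while those of Etv5 (0.15 ± 0.13) and Grb2 (-0.03 ± 0.07) were not. Over the 4 lists, 11 genes rose and 11 fell with loess, and 30 rose and 5 fell with median centring. With median centring the ratio of Dusp6 was 0.23, that of Dusp7 0.19 and that of Sdc2 0.05, each with the sign turned, and Fgfr4, Flrt3 and Fgfbp1 kept their sign but missed the threshold (adjusted p of 0.171, 0.0966 and 0.468). Without array 2, a single gene of the 4 lists was still called, Dusp7. Fgf12, Sdc2 and Fgfbp1 also missed the threshold without array 3 or 4, and Fgfrl1 without array 3, and Fgf12 missed it with the processed signals.

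**Figure D4:**
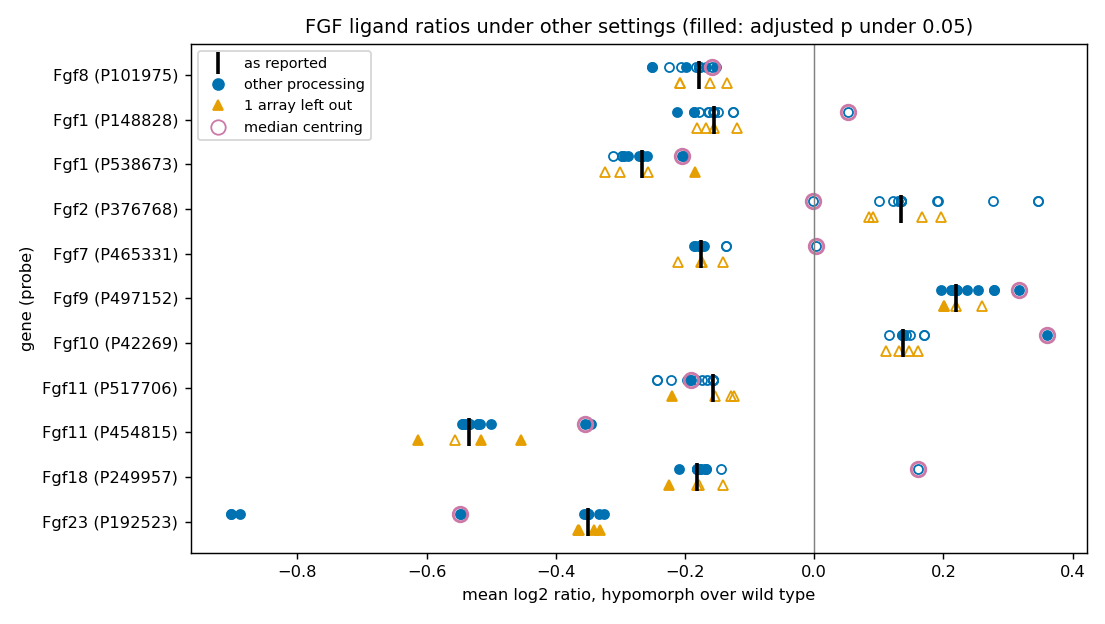
Mean log2 ratio of hypomorph over wild type (x axis) of the 11 tested FGF ligand probes (y axis) as reported (black line), under other processing (circles) and with 1 array left out (triangles), filled where the adjusted p was under 0.05 and ringed for median centring. Fgf8 stays between -0.25 and -0.14, and with median centring Fgf1 (A_51_P148828), Fgf2, Fgf7 and Fgf18 move across 0.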

How the data were processed

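Total RNA of E18.5 mouse lungs was measured on 4 two-colour Agilent arrays. The mean and local background intensities are raw scanner values deposited by the authors. The submitters' processing notes name Agilent Feature Extraction 9.5.1 for reading the spots. The log10 ratio and its p-value per spot are the scanner software's, per the file headers. The deposited series table holds log2 values. These are log2 of the processed Cy5 (hypomorph) over Cy3 (wild type) intensities of the same array, with a correlation of 1 to the scanner values and no further centring. Its column medians were -0.02, -0.00, -0.05 and -0.02.

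Background was corrected by normexp with an offset of 50 in limma 3.58.1 under R 4.3.3. The intensities were normalized within arrays by loess (span 0.3, control spots at weight 0), and averaged over the spots of a probe. Control spots and the 2136 to 2219 spots per array marked as outliers in the spot or its local background were left out. The test took probes with values on 3 or more arrays that stood well above background in 1 or both channels on 3 or more. The mean ratio was tested against 0 with lmFit and eBayes, adjusted by Benjamini-Hochberg over all probes. Levels are per channel after loess and Aquantile scaling. Every array held pools of separate lungs, and the number of arrays limits the precision. Probe positions are those of the files (mm8). Ligands were matched by the files' gene name, and genes of the lists through a RefSeq accession (GRCm38.p6), which gave a name for 24375 of 41174 probes. The steps were tested on simulated data, with changes larger than those of the called ligand probes measured in both genotypes. Recovery of smaller changes was not tested.

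The ligands, the lists and the tests were chosen with earlier results of these data known. Named are all ligand probes, up to 3 called genes with the smallest p of each pathway list, and the 3 genes nearest to Fgf8. Fgfr2, the genes of the feedback, target and adaptor list that rose, and Spred3 and Dusp4, which fell, were also named, after their values were seen. The mesothelial, mesenchymal and cartilage markers named were chosen with their values in view. The alternatives changed the background correction, the normalization, the filter, the treatment of marked spots, the weights, the variance model, the unit of the test and the arrays used.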

Additional observations from a re-analysis of the deposited data

Results flagged for a closer look

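In all, 45 sets of 4 values were looked at, namely the levels and ratios of the ligand probes and the ratios of the named pathway genes. The genes of the feedback, target and adaptor list that rose, and Spred3 and Dusp4, were not among them. In 1 set, 1 array stood apart from the other 3. The hypomorph log2 level of Fgf10 on array 2 was 11.51, while the other 3 hypomorph pools lay between 11.79 and 11.83, and the gap was 0.87 of the whole range, above Dixon's 95% critical value. Chance alone marks about 1 in 20 such sets. The ratio of Fgf10 on array 2, 0.07, was also its lowest.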

How the results depend on the processing

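Of 20 alternatives, 19 were planned and 1, ignoring marks of the local background, was chosen after seeing the data. Fgf8, Fgf9, Fgf10, both Fgf11 probes and the Fgf1 probe A_52_P538673 kept their direction in each alternative that tested them. The log2 ratio of Fgf23 ran from -0.90 to -0.33, and since its hypomorph signal is dim, its calls say nothing about stability; the filter asking for both channels did not test it. Fgf8 passed the threshold with the processed signals and with the series table that repeats them (-0.25 in both, adjusted p = 0.0484), without background correction (-0.20, 0.0476), with scaling between arrays (-0.17, 0.0389) and with array weights (-0.15, 0.0474). Median centring turned the sign of Fgf1 (A_51_P148828, 0.052), Fgf18 (0.16), Fgf2 (-0.0013), Fgf7 (0.0033), Dusp6 (0.23), Dusp7 (0.19), Sdc2 (0.045), Msln (0.12) and Pdgfra (0.083). The ligand probes called higher numbered 2 with median centring and 2 under a robust variance with an intensity trend, and those called lower 2 with plain subtraction and 7 with array weights. Over all probes, median centring called 14788, of which 10994 higher, and averaging all probes of a gene called 4885, of which 2528 higher and 2357 lower. The pathway genes called higher numbered 7 with processed signals, 7 with the series table, 7 with plain subtraction, 30 with median centring and 5 with averaged probes, and those called lower 5 with median centring. Leaving out 1 array gave 0 to 1 ligand probes higher and 1 to 5 lower, 1603 to 8057 probes called (823 to 3972 higher, 780 to 4085 lower), and 0 to 9 pathway genes higher and 1 to 14 lower, the lowest counts without array 2. The causes were not tested. No probe was at background in every pool of 1 genotype alone, so no fold bound was computed. No paired analysis was possible because the arrays form 1 group, and each ratio already pairs the pools of its array.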
